A study of Mus musculus with 13 samples.

Results

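The genes described here are 9 genes of the neutrophil's secondary and tertiary granules: Ltf, Camp, Ngp, Lcn2, Mmp8, Mmp9, Cd177, Itgb2l and Retnlg. They were picked from the tables by gene symbol. All 9 were found in each of the 3 deposited tables, among 55421 genes in all, and all 9 passed the filter on low counts that left 19289 tested genes. Each was read in bulk RNA-seq libraries of mouse bone marrow cells labelled as hematopoietic stem and progenitor cells (HSPCs). There were 2 wild type libraries, 2 from Setd2 knockout cells, 3 from Srsf2 mutated cells and 3 from cells with both changes, here the double mutant. Setd2 encodes the methyltransferase that marks transcribed chromatin at histone H3, and Srsf2 a splicing factor that is recurrently mutated in myelodysplastic syndrome. The series title names the P95H change of SRSF2 and its methylation by SETD2.

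For the single-cell samples of the series, which were not analysed here, the labels describe Lin- c-Kit+ cells with wild type, Srsf2P95H/+ or Setd2fl/fl Srsf2P95H/+ alleles. All of these carried Mx1-Cre+, the controls too, and were taken from a transplant model (BMT) at 4 weeks after pIpC. Mx1-Cre is driven by an interferon-responsive promoter and recombines in many cell types. For the bulk libraries the labels give neither the sort, the exact alleles, the transplant or the time, nor strain, age or sex. The labels do not say whether the libraries of a group came from separate mice, so the p-values measure only the spread between these libraries, which may be technical.

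Neutrophils load their granules in the order in which they mature. Primary granules with myeloperoxidase and serine proteases form in promyelocytes, secondary (specific) granules with lactoferrin in myelocytes and metamyelocytes, and tertiary (gelatinase) granules in band cells. The genes of each granule type are transcribed at the matching stage, under factors such as C/EBP epsilon, so their RNA marks granulocytes that have left the progenitor stage. In bulk RNA, a change in the share of such cells and a change in the RNA per cell cannot be told apart.

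By role, Ltf encodes lactoferrin, which binds iron. Camp encodes the antimicrobial peptide precursor cathelicidin, and Ngp the neutrophilic granule protein, related to the cathelicidins and cystatins. Lcn2 encodes a lipocalin that captures bacterial siderophores. Mmp8 and Mmp9 encode a collagenase and a gelatinase. Cd177 encodes a surface glycoprotein held in specific granules, Itgb2l an integrin beta-like protein of the neutrophil surface, and Retnlg a resistin-like secreted protein of mouse neutrophils.

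On GRCm38 (GENCODE M21), all 9 are protein-coding. Camp (ENSMUSG00000038357, chr9:109847379-109849617, minus strand), Ngp (ENSMUSG00000032484, chr9:110419747-110423012, plus strand) and Ltf (ENSMUSG00000032496, chr9:111019271-111042767, plus strand) lie beside Setd2 itself (chr9:110532597-110618633). Their starts are 685.2 kb, 112.8 kb and 486.7 kb from its start. Mmp8 (ENSMUSG00000005800, chr9:7558456-7568485) is on the same chromosome but 102.974 Mb away. The others are elsewhere: Lcn2 (ENSMUSG00000026822) at chr2:32384633-32388252, Mmp9 (ENSMUSG00000017737) at chr2:164940780-164955850, Cd177 (ENSMUSG00000052212) at chr7:24743983-24760311, Itgb2l (ENSMUSG00000000157) at chr16:96422288-96443619 and Retnlg (ENSMUSG00000022651) at chr16:48872621-48874496.

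The sequence before the start of transcription was read for the 8 members matched in the RefSeq promoter table (GRCm38.p6), which are all but Mmp9. A window of 250 bases before the RefSeq start was searched on both strands for 3 motifs: TTNNGCAA (C/EBP, the family that drives granule genes), GAGGAA (ETS, the family of PU.1) and an NF-kB motif. The C/EBP letters were found in 5 of the 8 windows (Ltf, Ngp, Lcn2, Mmp8, Retnlg), against 9.6% of 27025 promoters in the table. The ETS letters were found in 5 of 8 (Ltf, Lcn2, Mmp8, Cd177, Itgb2l), against 23.1%, and the NF-kB motif in 0 of 8, against 4.0%. Camp held none of the 3. By GENCODE the Lcn2 window, which held both C/EBP and ETS letters, lies wholly inside the gene, as does most of the Camp window. The motifs do not overlap each other in these windows, and a match is a description of letters, not a measured binding site. The following 4 are shown as members of different behaviour. Ltf and Ngp are among the most abundant, Itgb2l is a less abundant gene that followed Ngp, and Retnlg rose most in double mutant. Of the 4, Ltf holds both C/EBP and ETS letters, Ngp and Retnlg C/EBP letters only, and Itgb2l ETS letters only. Mmp8 and Lcn2, which also hold both, are not shown. Each is written 5′ to 3′ in the gene's direction, without the bases that GENCODE places inside the gene. They are Ltf at chr9:111019042-111019270 (plus strand), Ngp at chr9:110419558-110419746 (plus strand), Itgb2l at chr16:96443620-96443864 (minus strand) and Retnlg at chr16:48872358-48872607 (plus strand). Capitals mark the C/EBP letters or their reverse complement (runs that begin with TT and end with AA) and the ETS letters or their reverse complement (GAGGAA or TTCCTC).
Ltf: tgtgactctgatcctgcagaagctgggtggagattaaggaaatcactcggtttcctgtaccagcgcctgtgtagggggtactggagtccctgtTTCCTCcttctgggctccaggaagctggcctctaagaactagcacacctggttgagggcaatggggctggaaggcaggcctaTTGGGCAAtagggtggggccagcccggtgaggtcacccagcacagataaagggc
Ngp: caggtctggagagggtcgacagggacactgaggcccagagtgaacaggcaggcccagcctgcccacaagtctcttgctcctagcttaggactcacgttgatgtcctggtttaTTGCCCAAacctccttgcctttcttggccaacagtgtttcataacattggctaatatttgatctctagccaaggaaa
Itgb2l: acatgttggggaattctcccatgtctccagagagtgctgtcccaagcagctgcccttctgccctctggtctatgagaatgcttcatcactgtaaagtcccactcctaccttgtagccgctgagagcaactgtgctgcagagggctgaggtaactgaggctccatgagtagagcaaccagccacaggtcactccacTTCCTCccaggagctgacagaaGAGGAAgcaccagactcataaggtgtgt
Retnlg: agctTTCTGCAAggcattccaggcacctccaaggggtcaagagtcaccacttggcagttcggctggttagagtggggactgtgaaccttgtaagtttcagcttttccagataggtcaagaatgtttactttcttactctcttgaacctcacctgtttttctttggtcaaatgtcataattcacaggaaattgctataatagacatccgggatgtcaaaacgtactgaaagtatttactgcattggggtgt
Ngp has a further C/EBP match close to the RefSeq start, in the bases left off here.

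Total counts were 32117387 to 50445434 per library, and the lowest count of any member in any library was 577 (Retnlg in a Setd2 knockout). Levels are given as CPM, the count divided by the TMM-scaled library size in units of 1e6 counts. Beyond counting noise, libraries of a group varied by a coefficient of 0.105 (wild type), 0.0563 (Setd2 knockout), 0.194 (Srsf2 mutated) and 0.0773 (double mutant). The gene-level counts did not check the genotypes: wild type libraries had 152 ± 9.63 CPM of Setd2 (SD, n = 2) and those labelled Setd2 knockout had more, 222 ± 12.9 (n = 2). The Srsf2 mutated libraries had 197 ± 34.8 (n = 3) and the double mutant libraries 130 ± 0.87 (n = 3). The deleted exons are not named in the labels and counts per exon were not used here. Sex-linked genes moved with the groups. Xist was at 485.5 CPM in wild type and at 0.598 to 7.41 CPM as a mean in the other groups, and the Y-linked Ddx3y had 0 counts in wild type and Setd2 knockout but means of 111 and 124 CPM in Srsf2 mutated and double mutant. Sex and genotype thus cannot be told apart in the comparisons with wild type, in double mutant against Setd2 knockout, or in the interaction. In Setd2 knockout Xist was at 0.598 CPM and Ddx3y at 0 counts, so these genes do not give the sex of those libraries. Srsf2 mutated and double mutant libraries both had Ddx3y, with Xist at 1.78 and 7.41 CPM.

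The 9 genes shared one ordering at both ends. Each was lowest in Setd2 knockout and highest on average in double mutant. Summed, they took 1.01% and 1.49% of all counts in the wild type libraries, 0.454% and 0.476% after Setd2 loss, 1.17%, 1.15% and 1.28% with the Srsf2 mutation, and 2.22%, 2.23% and 2.20% with both. The Setd2 knockout libraries lay below, and the double mutant libraries above, the libraries of every other group.

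**Figure D1:**
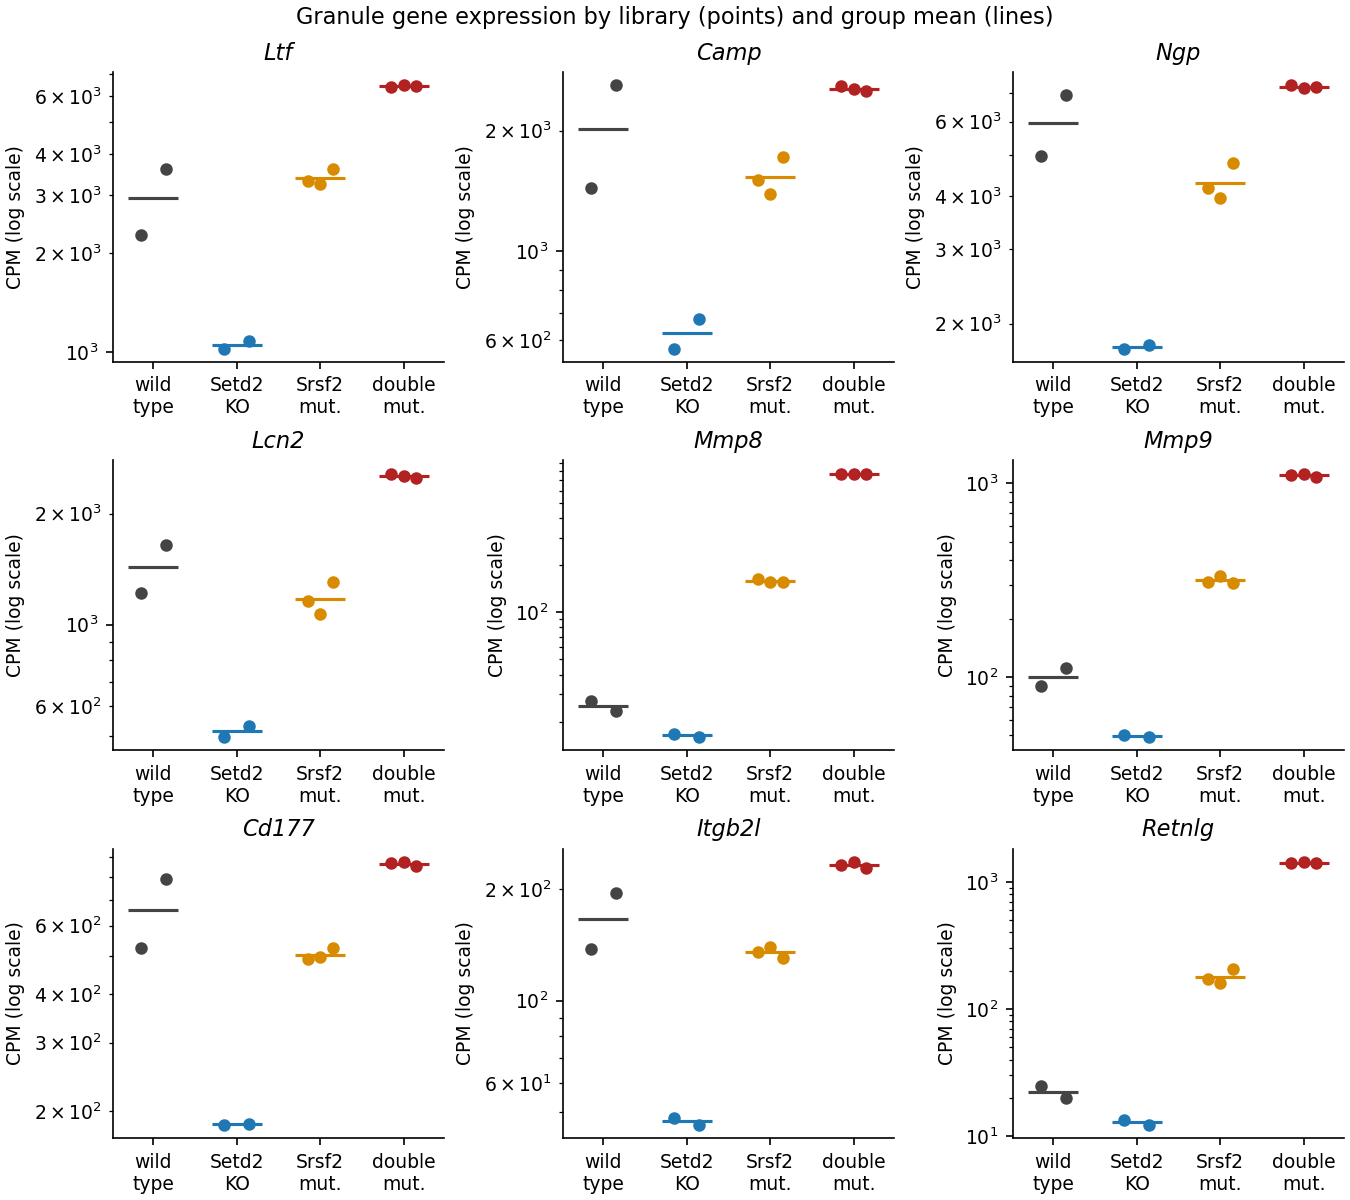
Expression of the 9 granule genes in each library (points, CPM on a log axis with its own range per panel) and the group mean (line), with 2 libraries each for wild type and Setd2 knockout and 3 each for Srsf2 mutated and double mutant. In each panel the Setd2 knockout libraries are the lowest, and only for Camp does a wild type library (2593 CPM) reach above the double mutant libraries.

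Loss of Setd2 alone was read from Setd2 knockout against wild type. All 9 genes were lower in the knockout (9 of 9 called lower and 0 higher at an adjusted p under 0.05 in edgeR's quasi-likelihood test), where 19.9% of all tested genes were called lower and 18.7% higher (7449 genes in all, but 4792 without the first knockout library). The median log2 fold change of the members was -1.48, against 0.042 over all tested genes. In none of the 9 did the groups overlap, where 34.6% of all tested genes were lower and 38.5% higher with no overlap between these 2 and 2 libraries. The falls ranged from 1.55-fold (Mmp8) to 3.56-fold (Cd177).

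Ngp, the member with the most counts, had 4976 and 6950 CPM in the wild type libraries and 1746 and 1779 CPM in the knockout libraries. The knockout libraries were nearly equal, and the lower wild type library was well above both. This is a log2 fold change of -1.76 ± 0.121 (SE, adjusted p = 2.84e-08). Ltf had 2275 and 3605 CPM in wild type and 1026 and 1086 in the knockout (-1.48 ± 0.141, adjusted p = 8.59e-07). Camp had 1440 and 2593 CPM in wild type and 571 and 678.5 in the knockout (-1.69 ± 0.184, adjusted p = 3.56e-06). In both genes the second wild type library was well above the first, so the size of the fall depends on it: without that library the fall of Ltf was 1.11 and of Camp 1.21 on the log2 scale, and without the first wild type library 1.77 and 2.05. Lcn2 was at 1218 and 1648 CPM against 496.2 and 532.4 (-1.48 ± 0.117, adjusted p = 1.27e-07). The surface genes fell most. Cd177 was at 524.8 and 792.9 CPM in wild type and 184.3 and 185.5 in the knockout (-1.83 ± 0.131), and Itgb2l at 137.6 and 194.7 against 48.35 and 46.17 (-1.81 ± 0.119).

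The metalloproteinases and Retnlg fell less. Mmp9 was at 89.6 and 110.5 CPM in wild type and 50.25 and 48.98 in the knockout (-1.01 ± 0.091, adjusted p = 4.88e-07). Mmp8 was at 27.0 and 23.5 CPM against 16.7 and 16.0 (-0.63 ± 0.0822, adjusted p = 2.23e-05). Retnlg was at 24.6 and 20.0 CPM against 13.4 and 12.2 (-0.80 ± 0.119, adjusted p = 7.29e-05). These 3 also had the lowest CPM of the members in wild type. The second wild type library was higher than the first for 7 members, by 1.23-fold (Mmp9) to 1.8-fold (Camp), but lower for Mmp8 and Retnlg, where the first was 1.15-fold and 1.23-fold above it.

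The Srsf2 mutation alone, read from Srsf2 mutated against wild type, split the members. Mmp8, Mmp9 and Retnlg were higher (3 of 9), where 28.5% of all tested genes were called higher, and Ngp, Lcn2, Cd177 and Itgb2l were lower (4 of 9), where 27.8% of all genes were called lower. Ltf and Camp were not called. The median over the members was -0.28, against 0.082 over all tested genes.

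Retnlg rose from 24.6 and 20.0 CPM in wild type to 172.7, 160.2 and 204.9 in the Srsf2 mutated libraries, an 8.04-fold rise (log2 fold change 3.01 ± 0.114, adjusted p = 5.45e-12). Mmp8 rose from 27.0 and 23.5 CPM to 163, 157 and 156 (6.28-fold, 2.65 ± 0.0785, adjusted p = 3.04e-13). Mmp9 rose from 89.6 and 110.5 CPM to 310.7, 330.1 and 303.7 (3.15-fold, 1.65 ± 0.0858, adjusted p = 2.43e-10). In these 3 genes every mutated library was above both wild type libraries.

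The lower calls were small. Ngp was at 4172, 3958 and 4782 CPM in the mutated libraries, all under the wild type values of 4976 and 6950 (-0.47 ± 0.106, adjusted p = 0.00141). For Lcn2 (-0.29 ± 0.104, adjusted p = 0.0289), Cd177 (-0.38 ± 0.115, adjusted p = 0.00993) and Itgb2l (-0.30 ± 0.104, adjusted p = 0.0222) the groups overlapped. None of these 3 was called without the second wild type library, which left 1 member called lower, Ngp at -0.21. Ltf was at 3302, 3254 and 3603 CPM in the mutated libraries against 2275 and 3605 in wild type (0.20 ± 0.126, adjusted p = 0.181, interval -0.04 to 0.45). Its direction rests on the wild type libraries: the log2 fold change was 0.57 without the second, when it was called higher, and -0.095 without the first. Camp was at 1502, 1389 and 1717 CPM against 1440 and 2593 (-0.39 ± 0.162, adjusted p = 0.0503), and ranged from -0.76 (called lower) to 0.088 as either wild type library was left out.

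Loss of Setd2 on the Srsf2 mutated background, read from double mutant against Srsf2 mutated, went the other way. All 9 members were higher in double mutant (9 of 9 called higher, 0 lower), where 17.8% of all tested genes were called higher and 15.9% lower. The median of the members was 0.93, against 0.005 over all tested genes. The groups did not overlap for any of the 9, where 24.0% of all tested genes were higher and 21.3% lower without overlap.

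Retnlg was at 1418, 1440 and 1401 CPM in double mutant against 172.7, 160.2 and 204.9 in Srsf2 mutated. Its level thus stood 7.92-fold higher (2.99 ± 0.0937, adjusted p = 1.49e-12). Mmp8 was at 772, 762 and 763 CPM against 163, 157 and 156 (4.83-fold, 2.27 ± 0.0641, adjusted p = 8.15e-13). Mmp9 was at 1106, 1123 and 1075 CPM against 310.7, 330.1 and 303.7 (3.5-fold, 1.81 ± 0.074, adjusted p = 2.69e-11). The same 3 genes that rose with the Srsf2 mutation alone thus had the largest rises here too.

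The abundant members rose by less. Ltf was at 6404, 6464 and 6434 CPM in double mutant (1.9-fold, 0.93 ± 0.113, adjusted p = 8.64e-06), and Ngp at 7306, 7214 and 7240 (1.69-fold, 0.75 ± 0.0964, adjusted p = 1.4e-05). Camp was at 2580, 2536 and 2505 CPM (1.65-fold, 0.73 ± 0.147, adjusted p = 0.00108). Lcn2, at 2569, 2526 and 2502 CPM, rose 2.15-fold (1.11 ± 0.0945, adjusted p = 1.42e-07). Cd177 was at 867.5, 875.9 and 851.9 CPM and Itgb2l at 231.4, 236.8 and 227.5, with log2 fold changes of 0.78 ± 0.104 and 0.78 ± 0.0938. The double mutant libraries were close to each other, with a coefficient of variation of 0.468% to 2.21% over the 9 members, against 2.49% to 12.9% in Srsf2 mutated and 9.63% to 40.4% in wild type.

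The difference between both Setd2 effects was tested as an interaction. It was called positive for 9 of 9 members and negative for 0, where 16.7% of all tested genes were called positive and 15.2% negative. The log2 interaction ran from 2.40 ± 0.181 (Ltf) to 3.79 ± 0.151 (Retnlg), with a median of 2.59 against -0.065 over all tested genes and adjusted p between 8.31e-11 (Mmp8) and 1e-06 (Camp). For the other members it lay between 2.42 (Camp) and 2.90 (Mmp8), a narrower span than in either Setd2 effect alone, apart from Retnlg. A larger fall with Setd2 loss alone, as in Ngp or Cd177, stood beside a smaller rise on the mutated background. Both effects share no library. All 9 interactions stayed called, in the same direction, in each alternative setting run for them.

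**Figure D2:**
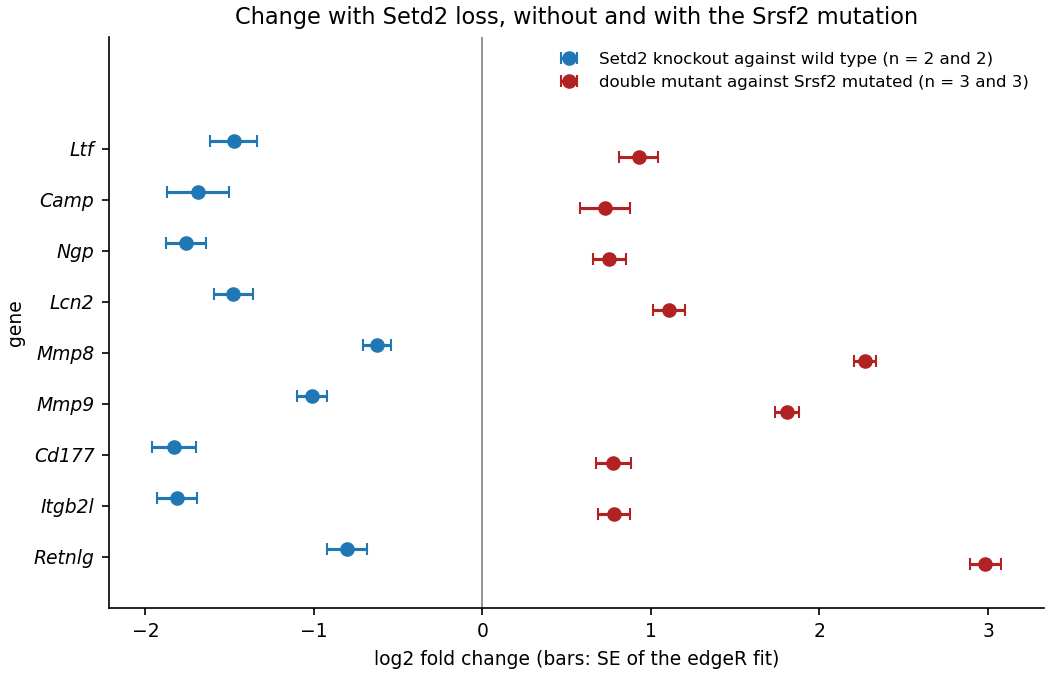
Log2 fold change of each member with Setd2 loss, as Setd2 knockout against wild type (n = 2 and 2) and as double mutant against Srsf2 mutated (n = 3 and 3), with the SE of the edgeR fit as bars. The first set lies below 0 for all 9 genes (-1.83 to -0.63) and the second above 0 (0.73 to 2.99).

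Double mutant was also set against Setd2 knockout and against wild type. These comparisons share the double mutant libraries with the one above, so they are not separate evidence. Against Setd2 knockout, 9 of 9 members were called higher and 0 lower, where 26.0% of all tested genes were called higher and 25.8% lower. The log2 fold changes ran from 2.02 ± 0.177 (Camp) to 6.79 ± 0.137 (Retnlg, 111-fold), with Mmp8 46.9-fold and Mmp9 22.2-fold higher. Against wild type, 8 of 9 were called higher and 0 lower, where 33.5% of all tested genes were called higher and 29.5% lower. Retnlg stood 63.6-fold higher (5.99 ± 0.131), Mmp8 30.3-fold (4.92 ± 0.0874) and Mmp9 11-fold (3.46 ± 0.0938). Ltf was 2.19-fold and Lcn2 1.77-fold higher. Ngp (0.28 ± 0.108, adjusted p = 0.0321), Cd177 (0.39 ± 0.117, adjusted p = 0.00815) and Itgb2l (0.48 ± 0.105, adjusted p = 0.000912) were little higher. The call of Ngp was lost in 7 of the 10 fits that left out 1 library: without either Setd2 knockout library, any of the 3 double mutant libraries, Srsf2 mutated replicate 1, or wild type replicate 1 (0.053, adjusted p = 0.622, against 0.0623 to 0.0699 in the other 6). Without wild type replicate 1 Cd177 was not called either (0.118, adjusted p = 0.188). Camp was not called (0.33 ± 0.165, adjusted p = 0.0899), since the second wild type library, at 2593 CPM, was above every double mutant library; its log2 fold change was 0.81 without that library and -0.038 without the first.

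Across groups, each member's levels can thus be ordered. Setd2 knockout stood lowest for all 9, apart from every other library. Against it, double mutant was higher without overlap in 36.3% of all tested genes and lower in 37.2%. Wild type and Srsf2 mutated libraries overlapped for Ltf, Camp, Lcn2, Cd177 and Itgb2l, and did not for Ngp, where wild type was higher, or for Mmp8, Mmp9 and Retnlg, where Srsf2 mutated was higher. Of all tested genes 33.4% were higher and 33.1% lower in Srsf2 mutated without overlap. Double mutant stood above every other library for 8 members, and overlapped wild type for Camp, where 41.2% of all tested genes were higher and 35.6% lower than in wild type without overlap.

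To compare levels between genes, CPM was divided by the listed gene length in kilobases (CPM per kb). On that scale Ngp, Camp, Ltf and Lcn2 were the highest members, in that order, among wild type libraries (means 4880, 2660, 852 and 546), after Setd2 loss (1440, 824, 306 and 196) and with the Srsf2 mutation (3520, 2030, 981 and 448). In double mutant Ngp (5940) and Camp (3350) still led, but Retnlg (2390) took rank 3, above Ltf (1860) and Lcn2 (965). Retnlg was at 37.6 in wild type, rank 7 of 9. Mmp8 (316) and Mmp9 (311) were at about the level of Cd177 (305) in double mutant, whereas in wild type Mmp8 was at 10.4, Mmp9 at 28.3 and Cd177 at 232.

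Set against Ngp in the same library, which removes the scaling between libraries, the members fell into those that kept their ratio and those that did not. Retnlg was at 1.02% and 0.594% of the Ngp level per length in wild type and at 1.58% and 1.41% in Setd2 knockout. It was at 8.53%, 8.34% and 8.83% in Srsf2 mutated and at 40.0%, 41.1% and 39.9% in double mutant, so each group stood apart from the others. Mmp8 went from 0.273% and 0.171% in wild type to 0.481% and 0.453% in Setd2 knockout, 1.97%, 2.0% and 1.64% in Srsf2 mutated and 5.32%, 5.32% and 5.31% in double mutant. Mmp9 went from 0.622% and 0.549% to 0.994% and 0.951%, then 2.57%, 2.88% and 2.19%, and 5.23%, 5.38% and 5.13%. In Setd2 knockout, where all 3 genes fell in CPM, their ratio to Ngp was thus above wild type. Ltf went from 16.2% and 18.4% in wild type to 20.8% and 21.6% in Setd2 knockout, 28.0%, 29.1% and 26.7% in Srsf2 mutated and 31.0%, 31.7% and 31.5% in double mutant. Cd177 stayed between 4.49% and 5.41%, Itgb2l between 0.734% and 0.996%, and Camp between 46.7% and 61.5% over all 10 libraries. Lcn2 lay between 11.0% and 13.9% outside double mutant and between 16.1% and 16.4% within it. These ratios are descriptions, with no test.

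**Figure D3:**
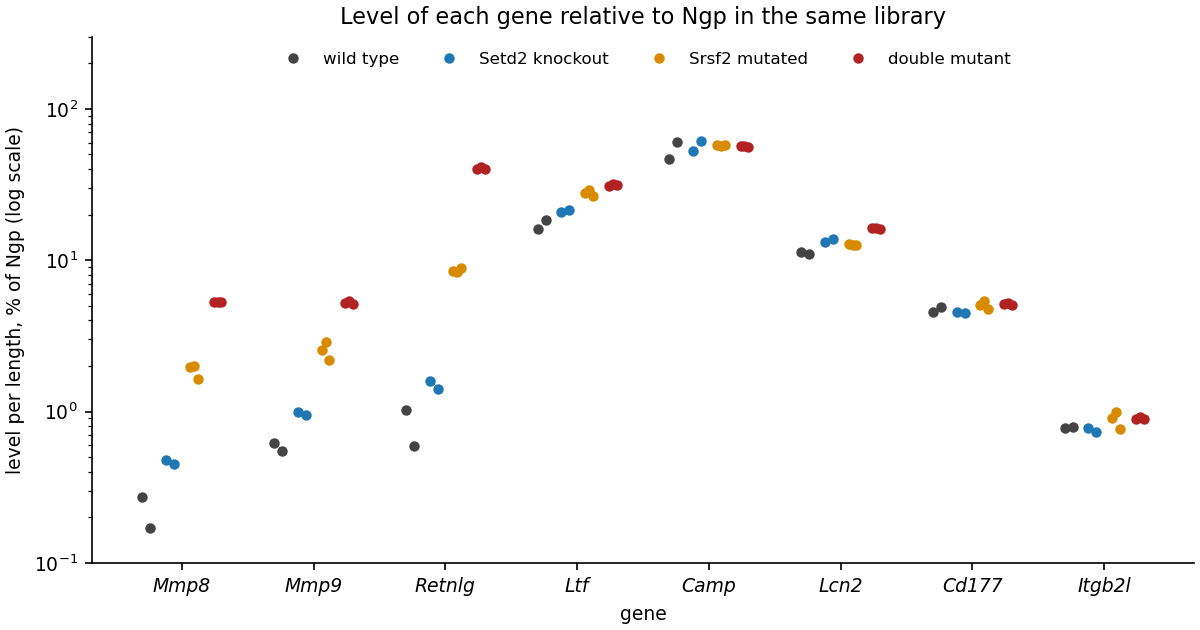
Level per length of the other 8 members as a percentage of Ngp in the same library (points, log axis), coloured by group (n = 2 for wild type and Setd2 knockout, n = 3 for the others). Retnlg, Mmp8, Mmp9 and Ltf step up from group to group, with Retnlg reaching 39.9% to 41.1% in double mutant, while Camp, Cd177 and Itgb2l do not.

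Over the 10 libraries the log2 CPM of the members correlated with each other by Pearson's r of 0.696 (Ngp with Mmp8) to 0.999 (Mmp8 with Retnlg), with Cd177 and Itgb2l at 0.997 and Ngp and Cd177 at 0.996. The libraries fall into 4 groups, so these values describe the group pattern. The non-member genes most like each member were, for Ltf, AA467197 (r = 0.9966), Arrb2 and the integrin gene Itgb2 (0.9949). For Lcn2 they were Chil1 (0.9972), Ly6a2 and S100a9 (0.9947). Among those for Camp were Prdx5 (0.9909) and Aldh3b1, for Ngp Prdx5 (0.9919) and Cotl1, for Cd177 Rgs14 (0.9913) and Aldh3b1, and for Itgb2l Cybb (0.9904) and Aldh3b1. For Mmp9 they were Mxd1 (0.9988), Cass4 and Dgat1. For Mmp8 they were Ighv1-18 (0.9986), Cdc25b and Ndel1, and for Retnlg Evi2a (0.9977), Cdc25b and Ighv5-9.

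For the gene lists below, the shares of all tested genes called are given first. In Setd2 knockout 18.7% were higher and 19.9% lower, and in Srsf2 mutated 28.5% and 27.8%. Double mutant had 17.8% and 15.9% against Srsf2 mutated, 26.0% and 25.8% against Setd2 knockout, and 33.5% and 29.5% against wild type. The interaction was positive for 16.7% and negative for 15.2%. Other proteins of secondary, tertiary and secretory granules (20 genes, all tested) followed the members. In Setd2 knockout 17 were lower and 1 higher (median -1.26), led by Lrg1 (-2.09 ± 0.131, a glycoprotein of neutrophil granules), Itgb2 (-1.36 ± 0.0909, the common beta chain of leukocyte integrins) and Chil1 (-1.87 ± 0.125). In Srsf2 mutated 6 were higher and 7 lower (median 0.05), with Adam8 (4.00 ± 0.0979, a metalloproteinase), Slc11a1 (2.93 ± 0.118, a metal transporter) and Olfm4 (2.37 ± 0.1, a protein of a subset of specific granules) the clearest. In double mutant against Srsf2 mutated 19 were higher and 0 lower (median 1.09). Olfm4 rose from 109 ± 7.0 to 637 ± 13.9 CPM (SD, n = 3 and 3, 5.86-fold), Adam8 from 154 ± 13.8 to 490 ± 11.1 CPM (3.18-fold), and Fpr1, a receptor for formyl peptides, 5.13-fold. Double mutant was higher than Setd2 knockout for 20 of 20 and than wild type for 14 with 1 lower. The interaction was positive for 19 and negative for 0, with Chil1 at 3.41 ± 0.159.

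Primary granule genes did not rise with the members in double mutant. Of 9, 8 were tested, and 8 were lower in Setd2 knockout (median -0.91), led by Prss57, a serine protease (-1.02 ± 0.0736), Cd63 (-1.13 ± 0.089) and Ms4a3 (-1.09 ± 0.101). In Srsf2 mutated 7 were lower and 1 higher (median -1.41). Mpo, myeloperoxidase, was at 11910 ± 18.3 CPM in wild type (SD, n = 2) and fell to 6927 ± 415 with Setd2 loss (n = 2). It was at 4293 ± 295 CPM in Srsf2 mutated (n = 3) and lower still, at 3127 ± 60.4, in double mutant (n = 3), where the members were highest. Elane, neutrophil elastase, was lower by 1.56 ± 0.076 on the log2 scale in Srsf2 mutated than in wild type. In double mutant against Srsf2 mutated 6 were lower and 1 higher (median -0.43), with Mpo at -0.46 ± 0.0604, Prss57 at -0.51 ± 0.0611 and the rise in Ctsc, which activates granule proteases (0.53 ± 0.0616). The interaction was positive for 7 and negative for 0 (median 0.54), so the list fell less with Setd2 loss on the mutated background. Summed, the list was at 26380 to 26680 CPM in wild type, 14270 to 15410 in Setd2 knockout, 9340 to 10960 in Srsf2 mutated and 7462 to 7608 in double mutant, whereas the 9 members summed to 10710 to 15940, 4152 to 4385, 10960 to 12720 and 23000 to 23250 CPM.

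**Figure D4:**
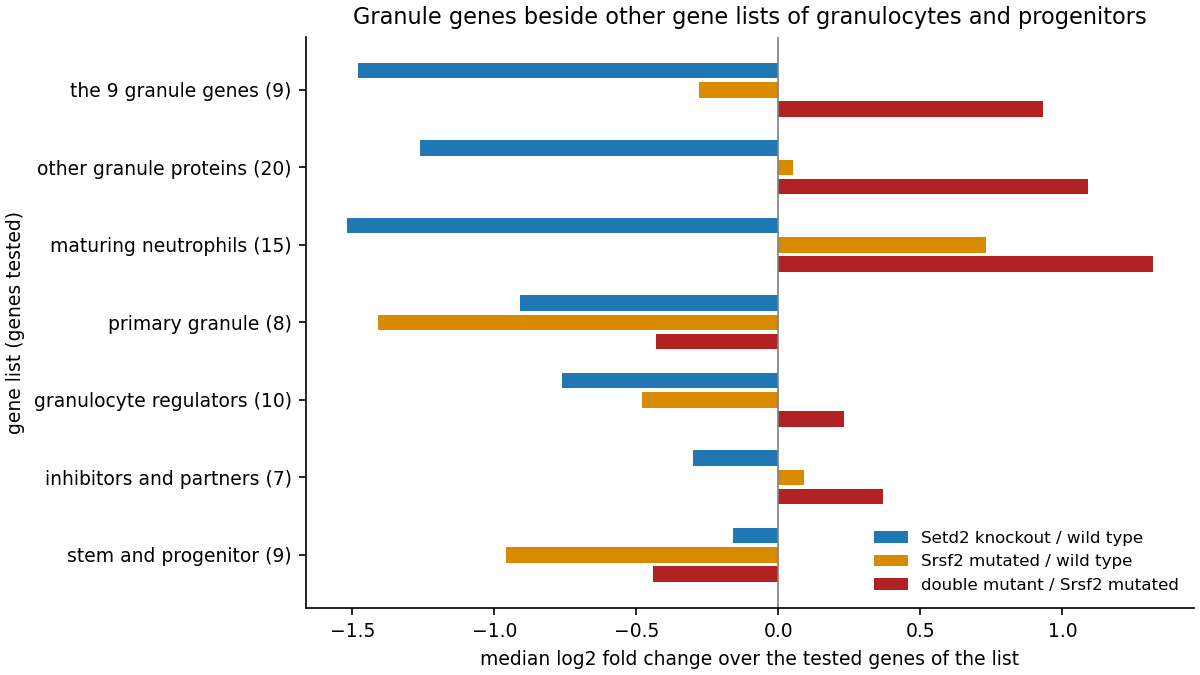
Median log2 fold change over the tested genes of 7 lists (number tested in brackets) for Setd2 knockout against wild type (n = 2 and 2), Srsf2 mutated against wild type (n = 3 and 2) and double mutant against Srsf2 mutated (n = 3 and 3). The 9 granule genes (-1.48, -0.28 and 0.93) share a fall with Setd2 loss alone and a rise in double mutant with the other granule proteins and the maturing neutrophil genes, while the primary granule list is below 0 in each (-0.91, -1.41 and -0.43).

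The regulators of granulocyte genes were read next (10 genes, all tested). In Setd2 knockout 9 were lower and 0 higher (median -0.76), led by Cebpd (-1.28 ± 0.117), Cebpa (-0.94 ± 0.0891) and Spi1, which encodes PU.1 (-0.98 ± 0.0929). In Srsf2 mutated 8 were lower and 1 higher (median -0.48). Gfi1, a repressor needed for neutrophil formation, fell from 210 ± 6.3 CPM in wild type (SD, n = 2) to 49.3 ± 2.12 in Srsf2 mutated (n = 3). Cebpe, the C/EBP factor required for specific granules, was highest in wild type, at 200 ± 50.5 CPM (n = 2), with 71.7 ± 1.65 CPM after Setd2 loss (n = 2), 71.7 ± 14.3 with the Srsf2 mutation (n = 3) and 94.9 ± 0.926 with both (n = 3). It was thus lower in Srsf2 mutated than in wild type (-1.49 ± 0.139, adjusted p = 2.24e-07). There 4 members were called lower and 3 higher, and Ltf and Camp were not called. In double mutant against Srsf2 mutated 5 were higher and 3 lower (median 0.23). Csf3r, the receptor for G-CSF, rose from 175 ± 9.46 to 433 ± 10.4 CPM (2.47-fold, 1.31 ± 0.06), while Cebpa (-0.55 ± 0.073) and Runx1 (-0.45 ± 0.0688) fell. The interaction was positive for 8 and negative for 0, and double mutant against wild type had 2 higher and 7 lower, with Gfi1 at -2.29 ± 0.0719. Against Setd2 knockout, double mutant had 6 higher and 3 lower, with Cebpb at 2.34 ± 0.161.

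Inhibitors and partners of the granule proteins (8 genes, 7 tested) were also read. Timp2, an inhibitor of metalloproteinases, was at 19.9 ± 0.513 CPM in wild type (SD, n = 2) against 11.7 ± 0.6 with Setd2 loss (n = 2). In Srsf2 mutated it was at 21.2 ± 2.25 CPM (n = 3) against 62.6 ± 1.62 in double mutant (n = 3). It was called higher in double mutant than in Srsf2 mutated (1.56 ± 0.0863, adjusted p = 8.44e-10). Reck, a membrane inhibitor of these enzymes, was lower in Setd2 knockout (-0.81 ± 0.164) and higher in double mutant than in Srsf2 mutated (0.63 ± 0.129). Lrp1, an endocytic receptor that binds lactoferrin, was higher in Srsf2 mutated than in wild type (0.90 ± 0.131), and Pecam1, the ligand of CD177, fell by 0.70 ± 0.0654 on the log2 scale between Srsf2 mutated and double mutant. Timp1 was called higher in Srsf2 mutated but was under 1 CPM in every group. In all, 0 rose and 4 fell in Setd2 knockout, where 18.7% of all tested genes were called higher and 19.9% lower. In Srsf2 mutated 3 rose and 0 fell, where the shares were 28.5% and 27.8%. In double mutant against Srsf2 mutated 3 rose and 2 fell, where they were 17.8% and 15.9%. Double mutant had 4 higher and 1 lower against Setd2 knockout and 4 higher and 2 lower against wild type, with 3 positive and 2 negative interactions.

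Markers of the cells that the libraries could hold moved with the groups, and their part in the granule gene results was not tested. Genes of maturing neutrophils (15 of 16 listed genes found, 15 tested) were lower in Setd2 knockout for 13 and higher for 0, and higher in double mutant than in Srsf2 mutated for 15 of 15. In Srsf2 mutated against wild type 8 of the 15 were higher and 6 lower (median 0.73), where 28.5% and 27.8% of all tested genes were. The sum of the 15 was 8549 to 10610 CPM in wild type, 2993 to 3347 in Setd2 knockout, 5798 to 7736 in Srsf2 mutated and 15340 to 15900 in double mutant. Il1r2, a decoy receptor of interleukin 1, was at 13.3 ± 0.251, 4.69 ± 0.0538, 32.02 ± 0.854 and 197 ± 5.54 CPM in these groups (SD, n = 2, 2, 3 and 3). S100a8 and S100a9 weighed most in the sum, with means of 3979 and 4615 CPM in wild type against 2544 and 3419 in Srsf2 mutated. Stfa2 had 0 counts in both Setd2 knockout libraries. HSPC markers (9 genes, none at 0 in any group) summed to 1485 to 1626 CPM in wild type, 1597 to 1625 in Setd2 knockout, 1007 to 1030 in Srsf2 mutated and 735 to 756.9 in double mutant. In double mutant against Srsf2 mutated 7 of them were lower and 1 higher, and in Setd2 knockout against wild type 4 were lower and 2 higher. Kit, the receptor by which such cells are sorted, was at 422 ± 33.7 CPM in wild type and 445 ± 14.6 with Setd2 loss (n = 2 each), and at 206 ± 12.7 CPM with the Srsf2 mutation and 163 ± 4.04 with both (n = 3 each), so progenitor markers were present beside granule genes in every group.

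Of the eosinophil markers (7 genes), 5 fell and 0 rose in Setd2 knockout, and 6 rose and 0 fell in double mutant against Srsf2 mutated. In Srsf2 mutated against wild type 5 of them rose and 1 fell, where the members split. They summed to 812.5 to 943.3 CPM in wild type, 152.5 to 165.1 in Setd2 knockout, 1263 to 1531 in Srsf2 mutated and 1742 to 1788 in double mutant, with none at 0 throughout a group. Prg2, a basic protein of eosinophil granules, fell by 2.49 ± 0.0973 on the log2 scale in Setd2 knockout. Erythroid markers (8 genes) rose instead in Setd2 knockout (8 of 8) and in double mutant against Srsf2 mutated (8 of 8), and summed to 580.8 to 602.2, 1616 to 1620, 3252 to 4075 and 10720 to 11450 CPM in the 4 groups in the same order. In Srsf2 mutated against wild type 4 of them rose and 2 fell (median 0.28), and Hba-a1, at a mean of 2374 CPM, was the largest part of the Srsf2 mutated sum.

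Since Camp, Ngp and Ltf lie near the deleted gene, the neighbourhood was read as well. The 60 other tested genes that start within 2 Mb of the start of Setd2 include Camp, Ngp and Ltf themselves. Of the 60, 11 were higher and 19 lower in Setd2 knockout than in wild type, with a median of -0.15. Over all tested genes 18.7% were called higher and 19.9% lower in that comparison, with a median of 0.042. Against Srsf2 mutated, double mutant had 15 of the 60 higher and 18 lower, with a median of -0.07. Over all tested genes these shares were 17.8% and 15.9%, with a median of 0.005. The interaction was positive for 13 of the 60 and negative for 13, where 16.7% of all tested genes were called positive and 15.2% negative. Camp, Ngp and Ltf are counted in the 19 lower, the 15 higher and the 13 positive. The largest fold changes among the 60 were in genes at or under 0.579 CPM as a group mean. Examples are Gm37678 and Gm43127, which had 0 counts in wild type. The members on other chromosomes (Lcn2, Mmp9, Cd177, Itgb2l and Retnlg) and the distant Mmp8 moved in the same direction as the 3 near Setd2 in both Setd2 comparisons. Whether the place beside Setd2 had a part in the changes of those 3 was not tested.

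The scaling of libraries moved the balance of calls over all genes but not the members' calls with Setd2 loss. With library totals alone, 73.4% of the genes called in Setd2 knockout against wild type were higher (48.4% with TMM). The same share was 60.6% in Srsf2 mutated against wild type (50.6%), 38.2% in double mutant against Srsf2 mutated (52.8%), 37.5% against Setd2 knockout (50.1%) and 24.4% in the interaction (52.4%). With upper-quartile scaling it was 59.5% in Setd2 knockout against wild type and 37.6% in the interaction. The median of all genes in Setd2 knockout against wild type was 0.258 with library totals, and all 9 members were still called lower.

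The authors' deposited table for double mutant against Srsf2 mutated gives the same direction for all 9 members but calls 3 of them. In the authors' deposited table the adjusted p is 0.000213 for Retnlg, 0.00409 for Mmp8 and 0.0216 for Mmp9, and 0.442 to 0.810 for the other 6, with standard errors of 0.43 to 1.02 on the log2 scale. In the counts of the same table the 3 double mutant libraries stand above the 3 Srsf2 mutated libraries for every one of the 9. The mean normalised count of Ngp in the authors' deposited table, 683360, exceeds the highest count of Ngp in these libraries, 350121, so that fit held values other than these 6 libraries. For Setd2 knockout and for Srsf2 mutated against wild type, the authors' deposited tables give each member the same mean normalised count, as in a fit shared by both. That of Retnlg, 21057, is above its highest counts in those tables, 1044 and 8096, so the fit held libraries or values beyond each table. In double mutant against Srsf2 mutated the mean of Retnlg is another, 38758. For Setd2 knockout against wild type the authors' deposited table gives Ngp -1.76, Ltf -1.48 and Retnlg -0.80, and for Srsf2 mutated against wild type Retnlg 3.03, Mmp8 2.68 and Ltf 0.23 (adjusted p = 0.283).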

How the data were processed

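The data were 10 bulk RNA-seq libraries in 3 deposited tables. Per the file headers, each holds whole-number read counts per gene, which were the values analysed, and the FPKM the authors derived from them; FPKM equalled count over the table's other column, gene length in bases, and over the library total. The same deposited tables hold the authors' log2 fold changes, their p-values and a mean normalised count, an abundance score of the authors' fit. Per the submitters' processing notes, DESeq2 1.22.2, featureCounts 2.0.1, HISAT2 2.0.5, HTSeq 0.9.1, SAMtools 1.7, Seurat 3.2.0 and STAR 2.6.1a were used, with no step named; the counter and strandedness of these counts are not given in the sources used here, so reads from overlapping or antisense genes cannot be told apart. The 5 libraries found in more than 1 table had equal counts, tables were joined on Ensembl identifier, 27 symbols turned into dates were restored, 0 columns of single samples were left over and 0 rows named no gene.

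Genes were filtered by filterByExpr and scaled by TMM in edgeR 4.0.16 (R 4.3.3, limma 3.58.1). One quasi-likelihood model with a term per group was fitted over all 10 libraries, and 6 contrasts were adjusted by Benjamini-Hochberg over the 19289 tested genes, with a threshold of 0.05 (two-sided). The fit was also run on counts simulated with the spread estimated from these libraries. That run cannot show whether the p-values hold if libraries of a group are technical or if groups differ in spread. SE is on the log2 scale, and intervals of fold changes come from the SE by the normal distribution. CPM has an SD over libraries. Same-numbered libraries did not deviate together (r between -0.03 and 0.04 over 13 pairs), so numbers were not used as pairs. Alternatives were other scalings and filters, only the groups compared, DESeq2 1.42.0, a replicate block, and each library left out in turn. The members and the 14 other gene lists (other granule proteins, primary granules, regulators, partners, maturing neutrophils and markers of HSPCs, monocytes, macrophages, eosinophils, mast cells and basophils, erythroid cells, megakaryocytes, B cells, and T and NK cells) were chosen with earlier results of these data known. Named genes are the 9 members, Setd2, Srsf2, from each other list up to 3 genes of smallest adjusted p per comparison, the tested genes within 2 Mb of Setd2 as a count with up to 5 of largest change, and for each member the 3 non-members of highest Pearson r of log2 CPM (prior count 2), of which some are not reported here. Cebpe, Mpo, Kit, Il1r2, Gfi1 and Timp2 were followed over all groups after being named so in 1 comparison or more; Stfa2, Gp1bb, Xist and Ddx3y were chosen after their values were seen. Positions are from GENCODE M21 on GRCm38. The 3 single-cell samples were not analysed here.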

Additional observations from a re-analysis of the deposited data

Results flagged for a closer look

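For each of the 9 granule genes the change with Setd2 loss differed between the wild type and the Srsf2 mutated background, by the interaction term of the edgeR fit itself (adjusted over 19289 genes). On the log2 scale the interaction was 2.403 for Ltf, 2.416 for Camp, 2.512 for Ngp and 2.584 for Lcn2. It was 2.899 for Mmp8 and 2.818 for Mmp9, the metalloproteinases, 2.609 for Cd177 and 2.595 for Itgb2l, and 3.787 for Retnlg. In each gene both Setd2 knockout libraries were below both wild type libraries, and the 3 double mutant libraries were above the 3 Srsf2 mutated libraries. Groups of 2 and 3 libraries are too small to look for a single outlying library.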

How the results depend on the processing

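All members' calls for double mutant against Srsf2 mutated or Setd2 knockout, for Setd2 knockout against wild type and for the interaction kept their direction and stayed called under every alternative run for them (18 in all, 17 for the interaction, which could not be fitted with only the groups compared). Members called lower in Srsf2 mutated against wild type (4) numbered 2 with upper-quartile scaling, 1 with library totals only, 1 with the stricter filter (1 CPM in at least 5 libraries), 2 with only the groups compared, and 1 to 5 as each library was left out (1 without wild type replicate 2, 2 without Srsf2 mutated replicate 1). Genes called in Setd2 knockout against wild type (7449) numbered 4792 to 8803 as each library was left out, the lowest without Setd2 knockout replicate 1. Reversals were seen when a wild type library was left out: Ltf in Srsf2 mutated against wild type ranged from -0.095 to 0.568, Camp there from -0.761 to 0.088, and Camp in double mutant against wild type from -0.038 to 0.811. A left-out library that leaves a group with 1 sample assumes that it varies like the other groups. In Srsf2 mutated against wild type, Ltf was called higher with library totals only (0.337, adjusted p = 0.0297) and with no filter (0.192, adjusted p = 0.0176), and Camp was called lower with no filter and without Setd2 knockout replicate 1 (adjusted p = 0.0435), Setd2 knockout replicate 2 (adjusted p = 0.0441), Srsf2 mutated replicate 3 (adjusted p = 0.0179) or wild type replicate 1. With the replicate block, as if same-numbered libraries were paired, Camp was called lower in Srsf2 mutated against wild type (-0.395, adjusted p = 0.0444), Ngp was not called in double mutant against wild type (0.254, adjusted p = 0.0504), and 7513 genes were called in Setd2 knockout against wild type; no other call of a member changed. Camp in double mutant against wild type was called with no filter (0.312) and with the stricter filter (0.454, adjusted p = 0.0311). Apart from fewer libraries, the causes were not tested. Every member had a count of 577 or more in each library.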

Other observations

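Markers of other cells of the marrow are given as values over all groups, in the order wild type, Setd2 knockout, Srsf2 mutated and double mutant, by the range of their summed CPM. Mast cell and basophil markers (6 genes) summed to 223.3 to 236.2, 223.1 to 224.6, 858.9 to 1060 and 367 to 378.1, and so did not follow the granule genes between Srsf2 mutated and double mutant, where Prss34, a basophil protease, was at -1.56 ± 0.0999 on the log2 scale. B cell markers (7 genes) summed to 98.5 to 114.5, 81.5 to 82.0, 931.1 to 992.6 and 250.1 to 265.1, with Vpreb1, a chain of the pre-B receptor, at -2.69 ± 0.106 in double mutant against Srsf2 mutated. Monocyte markers (7 genes) summed to 2088 to 2091, 1758 to 1888, 1590 to 1719 and 1871 to 1984, and macrophage markers (8 genes) to 179.3 to 181.4, 123.7 to 125.6, 144.7 to 160.1 and 169.4 to 174.7. Abundant genes weigh most in these sums: Ly6c2 had mean CPM of 1208 in wild type and 760 in double mutant, and Vcam1 120.8 and 43.2. In double mutant against wild type 5 monocyte markers were called higher and 2 lower, and 7 macrophage markers higher and 1 lower. Megakaryocyte markers (5 genes, 4 tested, with Gp1bb at 0 counts outside Setd2 knockout) summed to 207.5 to 209.7, 165.0 to 168.7, 166.2 to 178.3 and 88.85 to 98.28. T and NK cell markers (6 genes, with Cd3g at 0 counts in wild type) summed to 383.6 to 416.5, 208.3 to 225.9, 165.5 to 207.4 and 151.0 to 152.8. This sum was mostly Nkg7, at a mean of 395.8 CPM in wild type and 117.9 in double mutant. Against wild type, 5 of the 6 genes were called higher and 1, Nkg7, lower, both in Srsf2 mutated and in double mutant.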
